A study of Homo sapiens with 29 samples.

Results

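Open chromatin around FKBP5 was described over a 250 kb window of chromosome 6, from 35500000 to 35750000 in build hg19, in 22Rv1, a human prostate cancer cell line. The gene lies on the minus strand from 35541362 to 35696397, so its start is the higher coordinate. ATAC-seq uses a transposase that cuts accessible DNA, and the authors called peaks, the places where cuts piled up, separately in each of the 29 libraries. All peaks overlapping the window were merged over the libraries, which gave 29 regions of the 166696 in the genome. They are numbered 1 to 29 by rising coordinate. A region was held by a library when a peak of that library overlapped it by at least 1 bp.

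Parental 22Rv1 cells gave 5 groups of 3 libraries: 0.1% DMSO, the stereoprobe WX-02-23 at 20 µM, its stereoisomer WX-02-43 at 20 µM, and PladB (pladienolide B, which binds SF3B1 in the spliceosome) at 2 doses, 10 nM and 100 nM. The engineered cells made up 7 groups of 2 libraries. All of these overexpressed Y36C-PHF5A, a splicing factor variant, and carried doxycycline (Dox)-inducible FOXA1, either wild type (WT-FOXA1) or with the cysteine C258 replaced (C258A-FOXA1). Both engineered lines were given Dox with DMSO, with WX-02-23 at 20 µM or with PladB at 100 nM. The WT-FOXA1 line was also given DMSO without Dox. Treatment with DMSO or a compound lasted 3 h. The time with Dox is not given here. All cells grew in medium with 10% fetal bovine serum, which brings its own steroid hormones, and no hormone treatment is named. The labels do not say whether replicates were separate cultures, or whether a line was 1 clone, so p-values measure the spread between these libraries only.

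FKBP5 encodes FKBP51, a co-chaperone that joins HSP90 in the complexes that hold steroid receptors before and between rounds of hormone binding. The gene is itself a classic target of the androgen, glucocorticoid and progesterone receptors, which bind enhancers far upstream and inside its introns, and in prostate cells it is widely used as a readout of androgen receptor activity. FOXA1 is a pioneer factor: it binds its sites in closed chromatin and opens them, and in prostate cells the androgen receptor binds at many FOXA1 sites. The series asks how WX-02-23, which reacts with a cysteine of FOXA1, changes chromatin accessibility, with the C258A line lacking that cysteine in its induced FOXA1 and the stereoisomer as the control compound. ATAC-seq shows that a region is open, not that it acts as an enhancer.

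RefSeq (GRCh38.p14, minus strand) holds 2 start sites for FKBP5, 39.67 kb apart, and their promoters are shown because open regions lay at like distances from the hg19 gene start. Each run reads from 250 bases before the start to 25 bases after it, and capitals mark matches on either strand to the motifs searched. These were the forkhead core in its A form, TGTTTAC, and in its G form, TGTTTGC. The steroid receptor half-site was AGAACA. The GC box that SP1 binds was GGGCGG. The box that NF-Y binds was CCAAT, and the TATA box was TATAAA. No 2 matches overlapped.
FKBP5 start 1 (chr6:35728559-35728833): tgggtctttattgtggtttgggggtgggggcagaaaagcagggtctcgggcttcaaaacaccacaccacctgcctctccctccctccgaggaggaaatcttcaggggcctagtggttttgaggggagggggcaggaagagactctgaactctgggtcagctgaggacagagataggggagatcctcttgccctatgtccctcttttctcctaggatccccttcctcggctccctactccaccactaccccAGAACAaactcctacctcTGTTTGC
FKBP5 start 2 (chr6:35688891-35689165): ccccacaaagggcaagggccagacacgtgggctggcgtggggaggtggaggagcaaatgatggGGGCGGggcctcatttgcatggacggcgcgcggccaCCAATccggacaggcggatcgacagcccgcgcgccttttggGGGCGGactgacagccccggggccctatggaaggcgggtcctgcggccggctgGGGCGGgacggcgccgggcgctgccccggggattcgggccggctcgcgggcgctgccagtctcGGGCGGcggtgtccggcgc

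The outer start 1 had 56.4% G and C, 1 AGAACA and 1 TGTTTGC. Start 2, inside the gene, had 75.3% G and C, above 91.4% of all promoters, with 4 GGGCGG and 1 CCAAT. Over the 35116 RefSeq promoters taken at the same length, 13.6% held AGAACA, 3.57% TGTTTGC, 3.23% TGTTTAC, 43.9% GGGCGG, 33.4% CCAAT and 11.1% TATAAA. Neither promoter held TGTTTAC or TATAAA. A match describes the letters and is not a bound site. The peak lists are in hg19, no coordinate was converted, and no sequence of the peaks themselves is printed.

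Of the 29 regions, 18 lay inside the gene, 7 upstream of its start and 4 beyond its end. Introns and exons were not told apart, nor were neighbouring genes in the window, since no hg19 annotation was used here. In RefSeq's order ARMC12 is the next gene beyond the start and TULP1 the next beyond the end. The working name of the set, intronic and upstream enhancers, goes further than the data: the 4 regions beyond the gene end are neither, and enhancer activity was not measured.

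A core of 8 regions was open in all 29 libraries: 4 inside the gene, 3 upstream and 1 beyond the end. That is 27.6% of the window's regions, against 21.5% of all regions in the genome (35901 regions). At the other end, 5 regions appeared in 1 library only, 17.2% against 16.9% in the genome, and 4 in 2 libraries. The core regions were wider, with a median of 695 bp against 291 bp for the other 21, and they held most of the strong peaks. The width of a region joins the peaks of all libraries that held it, so it tends to grow with their number. Fold values below are the authors' fold enrichment of a peak's summit over its local background. They describe peaks within a list, and presence is what was compared between libraries, together with summit reads at regions that every compared library held.

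**Figure D1:**
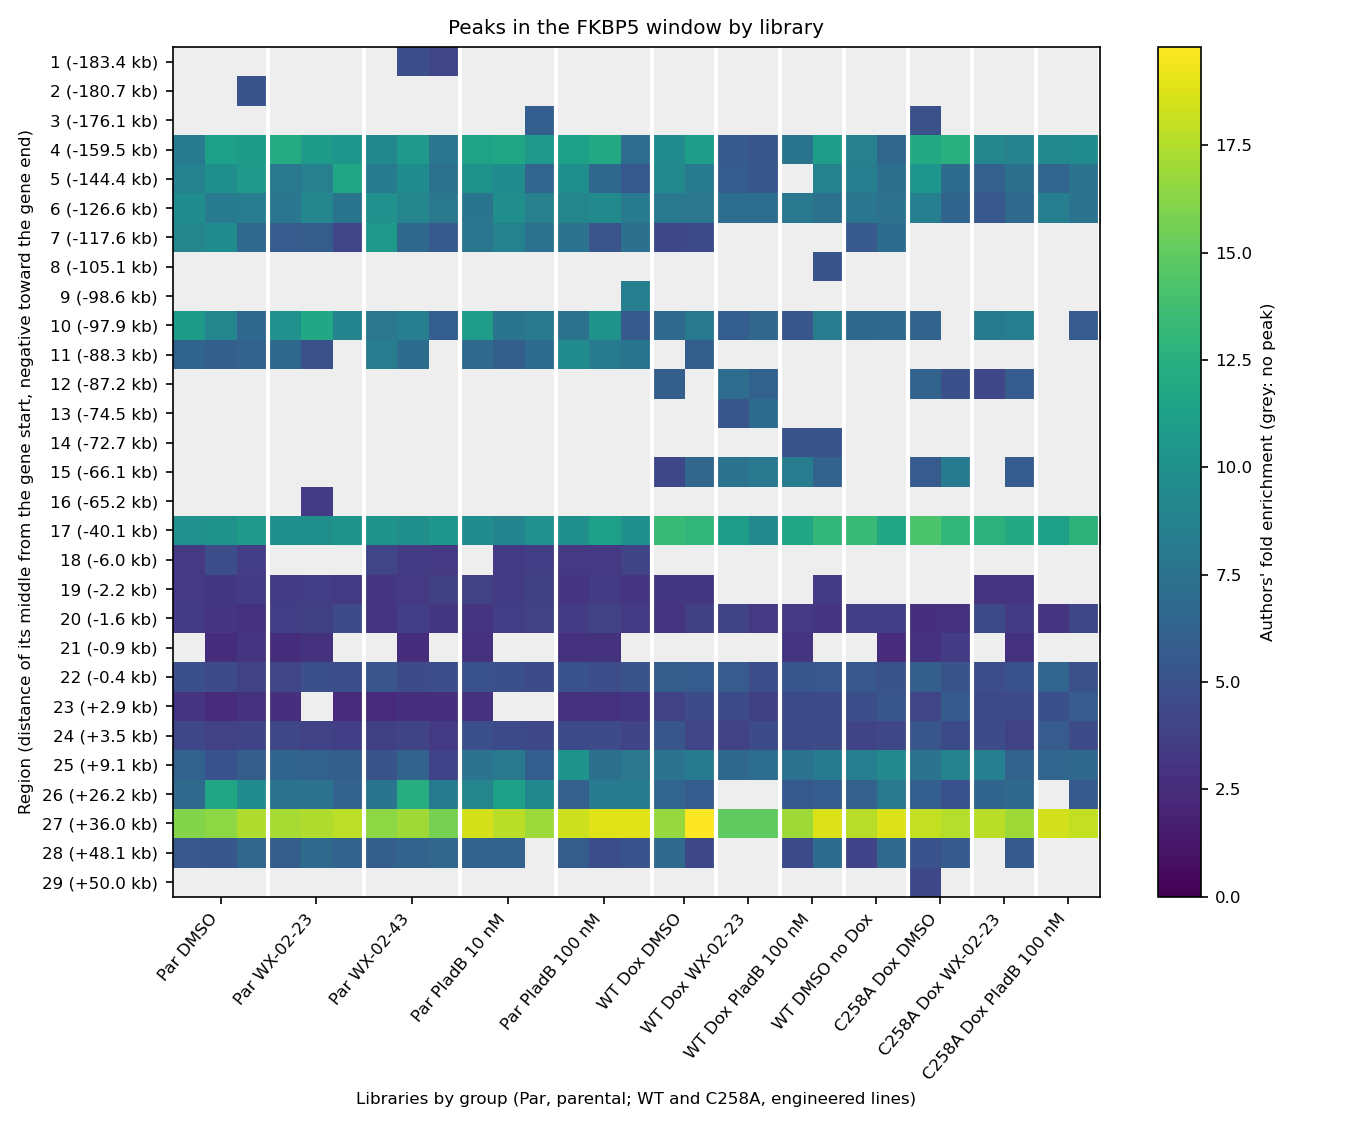
The 29 FKBP5 regions (rows, with the distance of each middle from the gene start in kb, negative toward the gene end) in the 29 libraries (columns, in 12 groups; Par, parental, WT and C258A, the engineered lines), coloured by the authors' fold enrichment and grey where no peak was listed. The 8 regions held by every library form full rows with region 27 brightest, while regions 12 and 15 are filled in engineered columns only and region 18 in parental columns only.

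The strongest peak of the window was region 27, 35.98 kb upstream of the gene start (chr6:35731894-35732870). Its fold was 14.93 to 19.79, median 17.62, and its −log10 p ranked at a median percentile of 99.3 within the lists. In parental DMSO libraries the fold was 16.13, 16.45 and 17.46, and in parental WX-02-23 libraries 17.2, 17.46 and 17.84. The summit rose on 63 to 116 reads, so this region rests on more reads than most others here. Its summits lay within 100 bp of each other in all libraries.

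Region 17 was the strongest inside the gene (chr6:35655444-35657189), 39208 to 40953 bp from the gene start. Its fold was 8.90 to 14.22, median 10.62, at a median percentile of 92.0, and its summits fell within 89 bp of each other. The 2 RefSeq starts are 39.67 kb apart, a distance inside the span of this region. The builds differ, so the 2 values are set side by side and not matched. Fold was 8.90 to 11.17 in parental libraries and 9.50 to 14.22 in engineered ones.

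Region 22, the nearest to the gene start, began 109 bp inside it and reached 707 bp inside (chr6:35695690-35696288). It had a median percentile of 79.7 but a fold of only 3.90 to 6.44, median 4.95. The summits held 57 to 106 reads, close to the 63 to 116 of region 27. Fold divides those reads by the local background, which here was a median of 18.8 times the library's own background.

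That raised background covered 7 neighbouring regions, 18 to 24, over 10.07 kb around the gene start (chr6:35690174-35700241). They were picked as the regions with a median local background of at least 10 times the library background. Their local background was 16.77 times the library background at the median, 17.5 in parental and 16.11 in engineered libraries, and 10.85 in the WT-FOXA1 libraries with WX-02-23. In the other 22 regions the median was 1.52, a gap that the cut itself brings about. In the whole genome 0.61% to 5.91% of a library's peaks stood on a background of at least 10 times. The peaks listed in regions 18 to 24 held 25 to 106 reads at their summits, and those listed elsewhere in the window 6 to 116. Where no peak is listed the chromatin may be open to a degree too small to call, and around the gene start that limit lay higher.

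**Figure D2:**
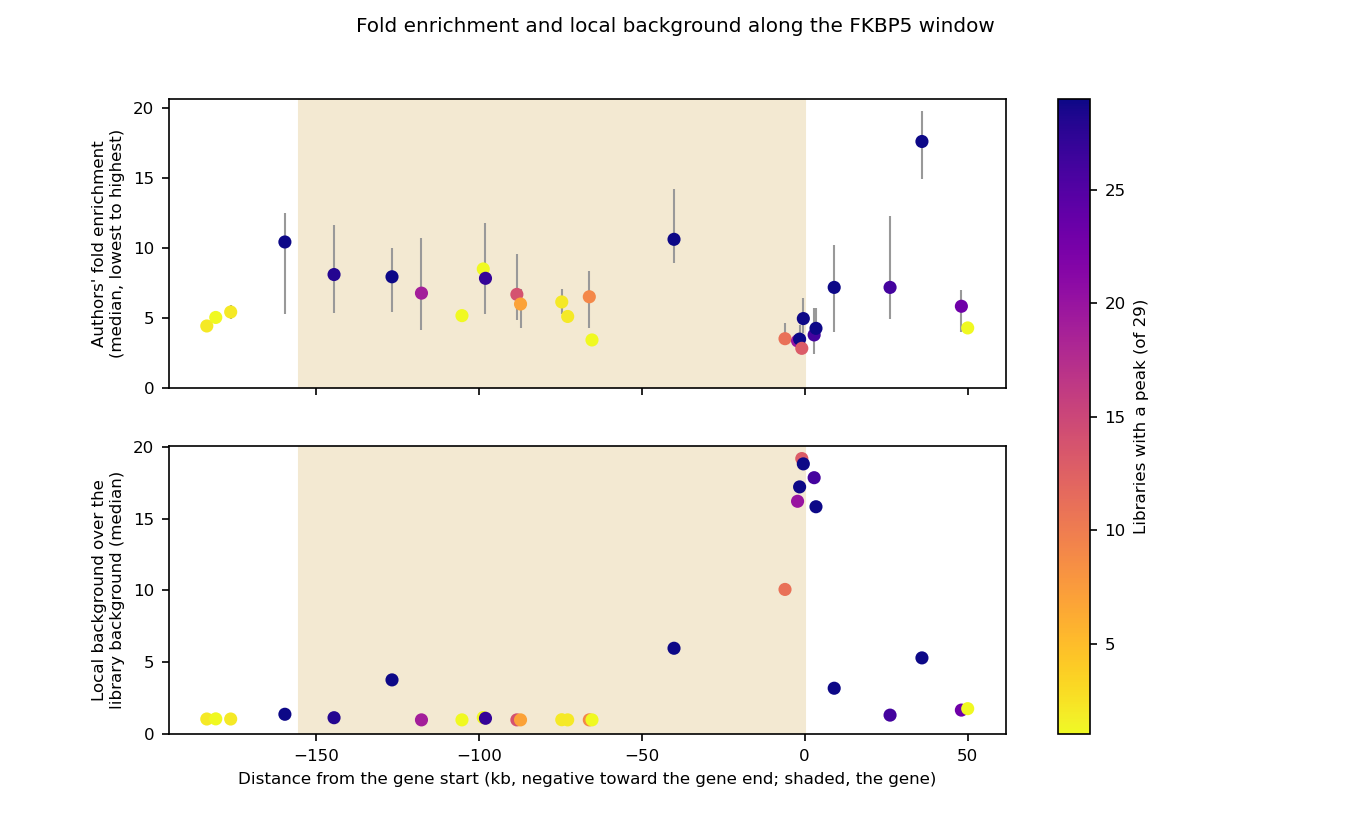
For each region, the median fold enrichment with a line from lowest to highest (upper panel) and the median local background over the library background (lower panel), against distance from the gene start in kb (negative toward the gene end, gene shaded), coloured by the number of libraries with a peak. Region 27 stands highest in fold at a median of 17.62, and regions 18 to 24 around the start combine low folds with the highest backgrounds.

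The remaining core regions were regions 4, 6, 20, 24 and 25. Region 4 (chr6:35536617-35537248), 159.46 kb from the gene start and so beyond the gene end, had a median fold of 10.43 (5.27 to 12.53). Region 6 (chr6:35568916-35570669), 126.60 kb inside, was the widest at 1754 bp with up to 4 peaks in a library, and its median fold was 7.94. Region 24 (chr6:35699484-35700241), 3.47 kb upstream, had a median fold of 4.25. The named rule took these 3 with regions 27, 17 and 22, as the 6 with the highest median percentile. Regions 20 and 25, 1.55 kb inside and 9.06 kb upstream, had median folds of 3.48 and 7.18.

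Between them, the other 21 regions ran from nearly constant to unique. Region 5 (28 libraries), region 10 (27), regions 23 and 26 (26 each), region 28 (23), region 19 (20) and region 7 (19) were open in most libraries. Regions 11, 21, 18, 15 and 12 were held by 14, 13, 11, 9 and 7 libraries. Regions 1, 3, 13 and 14 were held by 2 libraries, and regions 2, 8, 9, 16 and 29 by 1.

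Several regions were split by cell background. Of the 29 regions, 5 were held by parental libraries only and 6 by engineered libraries only, and 13 were held by all 15 parental libraries against 9 by all 14 engineered ones. Regions 1, 2, 9 and 16 of the parental set and 8, 13, 14 and 29 of the engineered set were held by 1 or 2 libraries. Regions so rare fall on 1 side easily. The genome shares of regions held on 1 side only, or by all libraries of 1 side, were not computed. The split can therefore not be called particular to this window. Region 18, 6.03 kb inside the gene (chr6:35690174-35690562), was held by 11 of 15 parental and by 0 of 14 engineered libraries. Region 15, 66.07 kb inside (chr6:35630086-35630575), was held by 0 of 15 and 9 of 14. Region 11, 88.29 kb inside (chr6:35607874-35608341), was held by 13 of 15 and by 1 of 14. Region 12, 87.17 kb inside (chr6:35609078-35609368), was held by 0 of 15 and 7 of 14. These are descriptions without a test, since the parental and engineered lists carry the names of separate processing runs, and cell background and batch cannot be told apart.

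Total reads per library were not given. The peak lists held 62832 to 98193 peaks, their background lay at 0.546 to 1.502 reads, and the smallest summit 5 to 8 reads. The WT-FOXA1 lists with WX-02-23 (67815 and 62832 peaks) and without Dox (69814 and 67195) were the shortest, against 71121 to 98193 in the others. An alternative keeps the 62832 peaks of highest −log10 p in every list, and is called lists of equal length below. It was computed for the region counts, the covered length and the gained and lost regions, but not for summit reads or genome shares.

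Parental cells treated with WX-02-23 lost the peak of 1 FKBP5 region and gained none. They held 17, 17 and 15 regions, against 17, 18 and 19 with DMSO, a difference of −1.67 regions (exact two-sided permutation test p = 0.3, adjusted p = 0.54; 3 against 3 libraries allow no p below 0.1). The groups overlapped at 17, and with 50% of a region covered as the rule for holding it the direction turned, to 1.0 regions more. Peaks covered 9.005, 8.92 and 8.39 kb with WX-02-23 and 7.97, 8.74 and 8.90 kb with DMSO, a difference of 0.24 kb (exact permutation p = 0.5). None of the 20 regions that either group held was gained, where 1.82% of regions in the genome were, and 1 was lost, where 1.18% were.

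The lost region was region 18. Its summit reads, scaled between libraries, were 31.4, 45.1 and 32.4 with DMSO and 39.1, 32.4 and 31.2 with WX-02-43. No WX-02-23 library listed it, and the same region was the 1 lost against WX-02-43 (1.07% in the genome), with none gained (1.60%). PladB at 10 nM had it in 2 of 3 libraries and at 100 nM in 3 of 3. All the folds were between 3.25 and 4.64, so it is a shallow peak on the raised background. In lists of equal length it was not called lost.

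Region 7, 117.56 kb inside the gene (chr6:35578676-35579001), was weaker in every parental WX-02-23 library. Its scaled summit reads were 8.6, 9.5 and 6.1 with WX-02-23 against 14.8, 17.0 and 10.8 with DMSO and 18.2, 10.0 and 11 with WX-02-43. The WX-02-23 values lay below both other groups without overlap, at ratios of 0.57 and 0.62. Between the groups, 12.3% of regions held by all 6 libraries were lower without overlap against DMSO and 12.4% against WX-02-43, and among the members this was 1 of 14 and 2 of 14. Region 4 was the other one below WX-02-43, at 20.3, 20.8 and 18.4 against 26.9, 28.6 and 23.6.

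Region 25 moved the other way. It had 25, 25.1 and 22.7 scaled reads with WX-02-23 against 21.2, 17.0 and 21.6 with DMSO, and it was the 1 of 14 regions higher without overlap (13.0% in the genome). Region 10, 97.92 kb inside, and region 27 were higher with WX-02-23 than with WX-02-43, 2 of 14 against 11.4% in the genome. Over all 14 regions the median ratio of WX-02-23 to DMSO was 1.005 in the members, against 1.004 in the genome.

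WX-02-23 and WX-02-43, which differ only in stereochemistry, were the 1 pair of related compounds, compared at the same dose and time with p-values adjusted over 9 tests of each measure. The difference in regions, WX-02-23 minus WX-02-43, was −1.33 with a 90% interval of −4.0 to 0.0 (exact permutation p = 0.6, adjusted p = 0.771). The difference in covered length was 0.23 kb with a 90% interval of −0.72 to 1.43 kb (exact permutation p = 0.9, adjusted p = 1.0). WX-02-43 alone differed from DMSO by −0.33 regions, interval −2.0 to 2.0 (exact permutation p = 1.0), and gained none and lost none of 20 regions (0.340% and 0.369% in the genome). Of 16 regions, 1 was lower with WX-02-43 than with DMSO without overlap (5.90% in the genome) and none higher (4468 of 63846 regions). The lower one was region 27, at 88.6, 88.1 and 89.5 scaled reads against 93.3, 91 and 95.5. These intervals still allow differences of several regions.

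**Figure D3:**
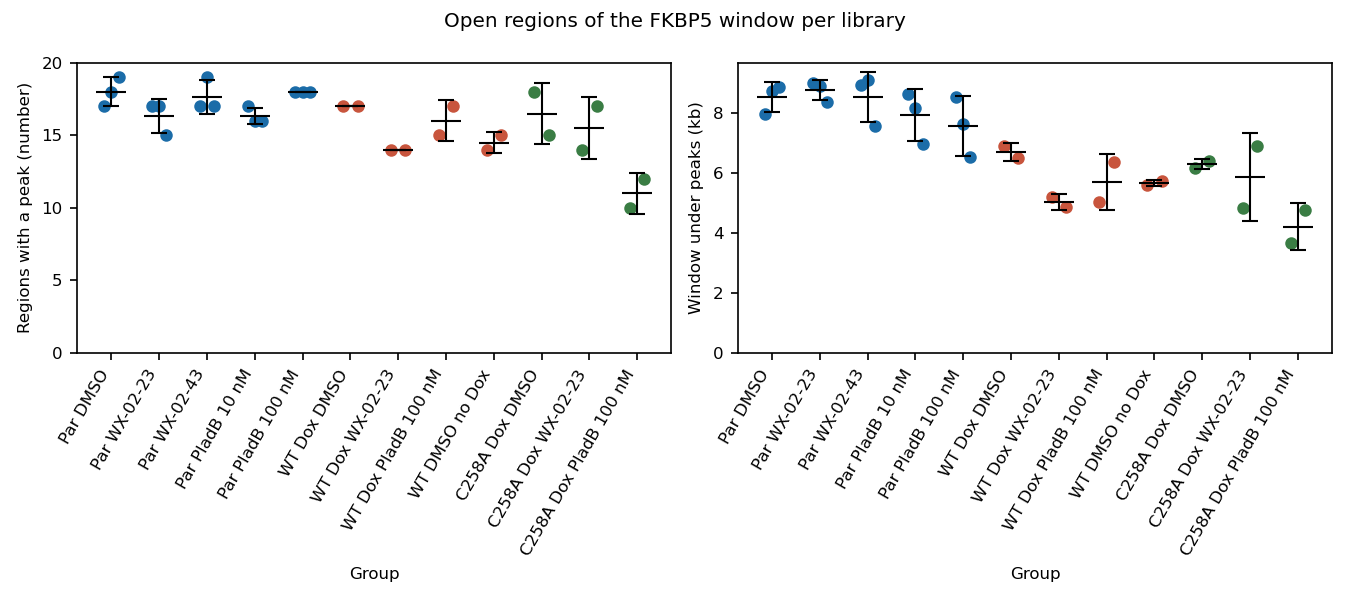
Number of FKBP5 regions with a peak (left) and kilobases of the window under peaks (right) in every library, by group, with points for libraries and bars for the mean ± SD. Parental groups lie between 15 and 19 regions, and C258A-FOXA1 with PladB lies lowest at 10 and 12.

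In the WT-FOXA1 line WX-02-23 left fewer FKBP5 regions listed, and in lists of equal length the direction turned. Both WX-02-23 libraries held 14 regions and both DMSO libraries 17, and covered 5.22 and 4.86 kb against 6.92 and 6.51 kb. Groups of 2 allow no p below 0.333, so no test is given. Of 19 regions, 4 were lost (11.7% in the genome) and 1 gained (1.31% in the genome). The lost ones were regions 7, 19, 26 and 28, and the gained one was region 13. In lists of equal length none was lost and 2 were gained, and WX-02-23 libraries held 2.0 regions more than DMSO.

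Region 26, 26.20 kb upstream (chr6:35722260-35722931), had scaled reads of 10.9 and 11.1 in the WT-FOXA1 DMSO libraries and no peak in either WX-02-23 library. In parental cells it was held throughout, at 11.7, 14.7 and 10.5 with WX-02-23 against 12.9, 23.0 and 21.6 with DMSO, and the groups overlapped. In the C258A-FOXA1 line both WX-02-23 libraries kept it, at 13.2 and 11.6 against 10.4 and 8.9. It was thus missing in 1 of 3 cell backgrounds under WX-02-23.

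Region 28, 48.08 kb upstream (chr6:35744143-35744815), was held by both WT-FOXA1 DMSO libraries at 14.9 and 9.1 scaled reads and by neither with WX-02-23. With the C258A-FOXA1 line it was in 1 of 2 WX-02-23 libraries. Region 7 was held with DMSO at 7.0 and 7.1, close to the smallest summit that is listed, and it was missing from all 6 C258A-FOXA1 libraries. Region 13, 74.52 kb inside (chr6:35621740-35622006), appeared in the 2 WT-FOXA1 libraries with WX-02-23 and in no other, at 11.5 and 18.6.

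Region 15 was listed in Dox-treated engineered libraries only. No parental library and neither library without Dox listed it, and both WT-FOXA1 libraries with Dox and DMSO did, at 7.0 and 11.1 scaled reads. With WX-02-23 it had 19.1 and 21.1, a ratio of 2.22 to DMSO, and the values did not overlap. Before scaling, the summits held 7 and 11 reads with DMSO and 15 and 17 with WX-02-23. The lowest of these is close to the smallest summit that is listed. Scaling divided the reads by 1.006 and 0.987 with DMSO and by 0.784 and 0.807 with WX-02-23. The library backgrounds were 0.869 and 0.844 reads with DMSO and 0.903 and 1.256 with WX-02-23. The ratio thus depends on the scaling, and none was computed on the library background for region 15. With PladB region 15 had 16.1 and 10.4 scaled reads. In the C258A-FOXA1 line it was listed in both DMSO libraries at 9.3 and 13.9, in 1 of 2 WX-02-23 libraries at 9.7 and in neither PladB library. Among 12 regions held by all 4 libraries of WT-FOXA1 with WX-02-23 and DMSO, 3 were higher without overlap (27.3% in the genome) and 4 lower (18.7%).

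**Figure D4:**
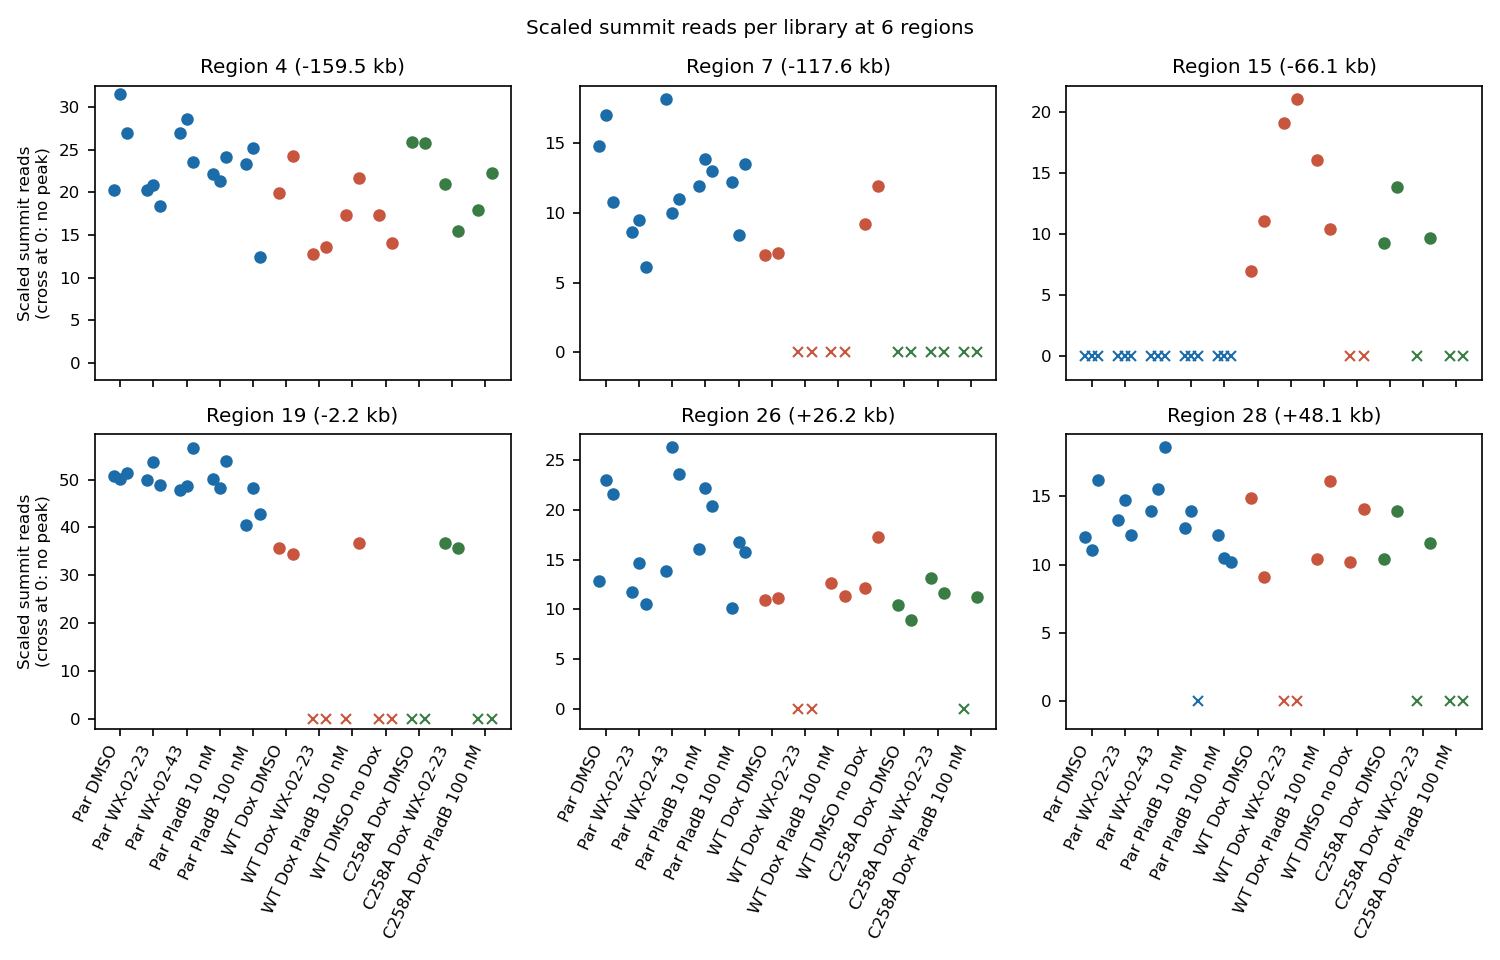
Scaled summit reads (vertical axis) of regions 4, 7, 15, 19, 26 and 28 in every library, by group, with a cross at 0 for a library that listed no peak. Region 15 has values only in engineered groups with Dox, and region 26 lacks peaks in both WT-FOXA1 WX-02-23 libraries.

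Inducing WT-FOXA1 itself was compared as Dox with DMSO against DMSO without Dox. The lists held 17 and 17 regions with Dox and 14 and 15 without, and 2 of 19 regions were gained (13.2% in the genome) and none lost (1.10%). The gained ones were regions 15 and 19. Region 19, 2.18 kb inside (chr6:35693897-35694542), had 35.8 and 34.4 scaled reads with Dox and stood among the regions of raised background. In lists of equal length none was gained, 2 were lost and the Dox libraries held fewer regions by 1.5 on average (−1.5). Among 14 regions held by all 4 libraries, 3 were higher with Dox without overlap (18.8% in the genome) and 5 lower (21.6%).

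In the C258A-FOXA1 line WX-02-23 lost none of 19 regions (2.55% in the genome) and gained region 19 (2.37%), at 36.8 and 35.8 scaled reads. Region 19 was not called gained in lists of equal length, which listed it in neither group, or when peaks closer than 200 bp were merged. Of 12 regions, 5 were lower without overlap (18.2% in the genome) and 2 higher (20.8%), and the 5 were regions 4, 17, 22, 24 and 27. The libraries held 14 and 17 regions with WX-02-23 and 18 and 15 with DMSO, and overlapped. Leaving out 1 library moved that difference of −1.0 regions to between −2.5 and 0.5. The change under WX-02-23 in the WT-FOXA1 line was 2.0 regions more negative than in the C258A-FOXA1 line (exact permutation p = 0.5, adjusted p = 0.75; 36 arrangements, smallest p 0.0556). The direction turned in lists of equal length, to 0.5. It was −3.5 without replicate 1 and −0.5 without replicate 2 of either C258A-FOXA1 group. For covered length it was 1.25 kb more negative (exact permutation p = 0.278, adjusted p = 0.625), −2.29 kb without replicate 1 and −0.21 kb without replicate 2 of C258A-FOXA1 with WX-02-23, and −0.38 kb in lists of equal length. The difference between the lines was not larger than the spread between libraries, and both lines still carry their own FOXA1 gene.

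PladB, which acts on splicing, was compared at 2 doses. In parental cells 10 nM gave 17, 16 and 16 regions and 100 nM gave 18, 18 and 18, against 17, 18 and 19 with DMSO. Against DMSO the difference was −1.67 regions at 10 nM (exact permutation p = 0.2, adjusted p = 0.45) and 0.0 at 100 nM (exact permutation p = 1.0). Among peaks with a fold of at least 6 the direction at 10 nM turned, to 1.0. The doses differed by 1.67 regions, 1.0 to 2.0 in the 90% interval, without overlap (exact permutation p = 0.1, adjusted p = 0.35), and in lists of equal length the difference turned to −0.67. In no parental PladB comparison was a region gained or lost. The genome shares gained and lost were 0.408% and 0.556% at 10 nM, 0.187% and 1.68% at 100 nM, and at 100 nM against 10 nM 0.121% were gained and 1111 of 110903 lost. At 10 nM 1 of 14 regions was lower than DMSO without overlap (7.83% in the genome) and none higher (6.98%): region 17, at 66.3, 68.6 and 63.1 scaled reads against 72, 70.6 and 76.6.

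At 100 nM in parental cells 3 of 17 regions were higher than DMSO without overlap (9.29% in the genome) and 1 lower (11.7%). Region 27 had 102.3, 103.9 and 110.5 scaled reads against 93.3, 91.0 and 95.5. Region 11, 88.29 kb inside, had 16.2, 13.6 and 13.5 against 10.2, 9.4 and 9.9, and region 25 had 29.4, 24.1 and 24.8 against 21.2, 17.0 and 21.6. The lower one was region 19. Between the doses 4 of 14 regions were higher at 100 nM (6.47%) and none lower (8.04%).

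With PladB the C258A-FOXA1 line listed fewer FKBP5 regions than with DMSO, without overlap. It held 10 and 12 regions against 18 and 15, and 3.66 and 4.77 kb against 6.19 and 6.42 kb. The difference of −5.5 regions was −0.5 in lists of equal length and −1.0 among peaks with a fold of at least 6, and that of −2.09 kb was −0.69 and −0.54 kb. The line lost 4 of 18 regions (4.67% in the genome), regions 12, 15, 21 and 28, and gained none (0.806%). In the DMSO libraries region 12 had 10.4 and 7.9 scaled reads, and region 21, 0.88 kb inside (chr6:35695396-35695635), had 42.5 and 54.5. In the WT-FOXA1 line PladB gave 15 and 17 regions against 17 and 17 with DMSO, so the groups met at 17. It lost region 7 (3.05%) and gained region 14 (0.915%) of 21. Region 14, 72.70 kb inside (chr6:35623573-35623823), had 9.2 and 8.5 scaled reads there and no peak in any other library. In lists of equal length neither line lost or gained any region. Of 10 regions held by all 4 libraries of C258A-FOXA1 with PladB and DMSO, 3 were lower without overlap (20.4% in the genome), regions 4, 17 and 25, and 1 higher (17.3%). The C258A-FOXA1 PladB libraries also had the lowest backgrounds, 0.546 and 0.587 reads.

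Libraries were then compared within cell background and averaged over the 3 backgrounds, with labels exchanged only within each. WX-02-23 held 1.89 regions fewer than DMSO (exact permutation p = 0.0472, adjusted p = 0.35), with differences of −1.67 in parental, −3.0 in WT-FOXA1 and −1.0 in C258A-FOXA1 cells. In lists of equal length the mean difference was 0.5, in the other direction. PladB at 100 nM held 2.17 regions fewer (exact permutation p = 0.117, adjusted p = 0.35) and covered 1.36 kb less (exact permutation p = 0.00833, adjusted p = 0.075), with differences of −0.96, −1.02 and −2.09 kb. These means were −0.22 regions and −0.54 kb in lists of equal length (exact permutation p = 0.767 and 0.05), and the length was −0.58 kb among peaks with a fold of at least 6 and −0.55 kb with summit windows of 100 bp each side. The covered length with WX-02-23 differed by −0.62 kb (exact permutation p = 0.169). No difference of either measure passed the adjustment over 9 tests.

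The 8 core regions could be compared by their summit reads, scaled between libraries. Over the 35901 regions held by all libraries, the exact permutation test within backgrounds called none at an adjusted p below 0.05, that is 0% higher and 0% lower, for either compound. In that exact permutation test the smallest adjusted p was 0.051 for WX-02-23, just above the cut, and 0.240 for PladB. At an unadjusted p below 0.05 it gave 7323 regions for WX-02-23 and 3851 for PladB. Scaled by the library background instead, it called 56 regions higher (0.156%) and 2351 lower (6.55%) with WX-02-23, and none with PladB (6508 at an unadjusted p below 0.05). That scale moved the median of all regions under WX-02-23 from 0.01 to −0.25 on the log2 scale. The number of calls thus depends on the scaling, and only the library background as the scale gave any.

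Region 4 showed the largest change of the 8 under WX-02-23, and it was lower in every background. In the WT-FOXA1 line it had 12.8 and 13.6 scaled reads against 19.9 and 24.3 with DMSO, and in the C258A-FOXA1 line 21.0 and 15.5 against 25.9 and 25.8. In parental cells it had 20.3, 20.8 and 18.4 against 20.3, 31.5 and 27.0. The engineered groups did not overlap, and the parental ones did. The log2 difference was −0.55 (exact permutation p = 0.00556, adjusted p = 0.0714), with −0.39 ± 0.19 (SE) in parental, −0.74 ± 0.15 in WT-FOXA1 and −0.52 ± 0.22 in C258A-FOXA1 cells.

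The local background of region 4 in parental cells was 1.08, 1.26 and 1.2 times the library background with WX-02-23 against 2.09, 2.4 and 2.04 with DMSO. The authors' fold, which divides by that background, was 12.19, 10.78 and 10.43 against 8.08, 11.18 and 10.78. With PladB the log2 difference at region 4 was −0.32 (exact permutation p = 0.0444, adjusted p = 0.434). On the scale of the library background region 4 was called lower with WX-02-23, at −0.81 (exact permutation, adjusted p = 0.0414), where the median of all regions was −0.25. It was the 1 of the 8 core regions called, against 6.55% of all regions lower. The adjusted p ran from 0.0414 to 0.208 over its alternatives.

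Region 20 had higher mean scaled reads under WX-02-23 in every background, by 0.31 on the log2 scale (exact permutation p = 0.00556, adjusted p = 0.0714). It had 59.3, 63.3 and 74.3 scaled reads against 60, 54.4 and 48.7 in parental cells. The WT-FOXA1 line had 57.4 and 50.8 against 42.7 and 49.6, and the C258A-FOXA1 line 63.1 and 46.5 against 37.3 and 42.6. The parental groups overlapped and the engineered ones did not. Before scaling, the WT-FOXA1 libraries held a mean of 43.0 summit reads with WX-02-23 against 46.0 with DMSO. With the library background as the scale the log2 difference over the backgrounds was 0.05 (exact permutation p = 0.747), and the other 7 core regions were then below 0. The other 6 core regions differed by −0.12 to 0.09 under WX-02-23 (smallest adjusted p 0.163, region 17, exact permutation) and by −0.06 to 0.07 under PladB. Region 27 was among them, at −0.12 and 0.07.

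**Figure D5:**
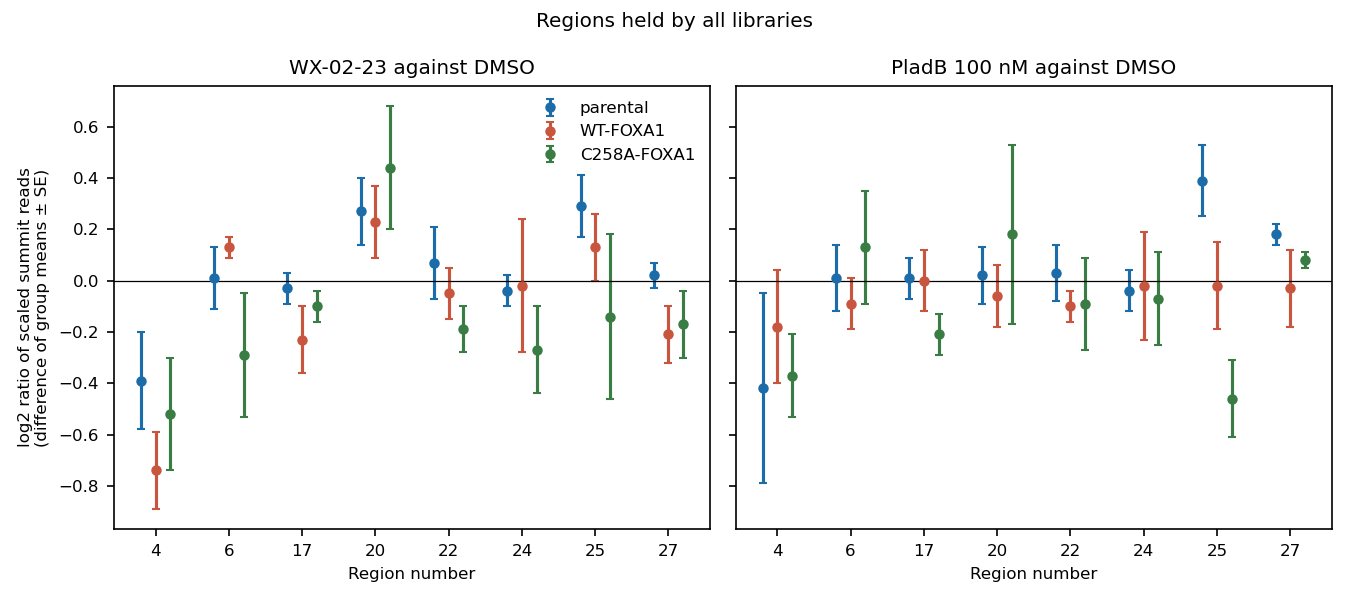
Log2 difference in scaled summit reads (vertical axis, difference of group means ± SE) at the 8 regions held by all libraries (horizontal axis), for WX-02-23 (left) and PladB 100 nM (right) against DMSO, coloured by cell background. Region 4 lies below 0 in all 3 backgrounds with WX-02-23 and region 20 above 0.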

How the data were processed

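The material was 29 lists of ATAC-seq peaks, called in each library on its own. Per the submitters' processing notes, Bowtie2 and MACS2 were used on hg19. How they were run, in which version, and whether cut positions were shifted for the transposase is not given in the sources used here. In each list the authors deposited a score, a fold enrichment over local background (a ratio), −log10 p, −log10 q and the summit's distance from the peak start.

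Overlapping or touching peaks were merged over libraries, and 35 mitochondrial peaks were left out. Summit reads and local background were solved from the deposited fold and −log10 p, as (reads + 1)/(background + 1) with a Poisson p-value. This succeeded for 100% of peaks, at a tolerance of 0.001 in −log10 p. Summit reads were scaled by each library's median ratio over the regions held by all 29 libraries. The extension of reads is not known, so they serve as relative values. The background stands in for depth.

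A region was gained or lost when all libraries of one group and none of the other held it. Region counts and covered length went through exact permutation tests, two-sided, and p-values were adjusted after Benjamini and Hochberg over 9 tests per measure; 90% intervals are the range of pairwise differences. Summit reads were tested over all 35901 regions within cell backgrounds, in 720 arrangements, of which the smallest p is 0.00278; this comparison of summit reads and its alternatives were added after seeing the data. Regions named were the nearest to the gene start, the 6 of highest median percentile and those gained or lost. The region set, lists and rules were chosen with earlier results of these data known. Same-numbered replicates did not deviate together, so the replicate number was no block. Counting and tests were tested on simulated data. The work ran in Python 3.11.15 with scipy 1.17.1, numpy 2.4.6, pandas 2.3.3 and, for plots, matplotlib 3.10.9. Windows of other androgen or glucocorticoid receptor targets were not analysed here, for want of an hg19 annotation.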

Additional observations from a re-analysis of the deposited data

Results flagged for a closer look

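Region 19, 2.18 kb inside FKBP5, changed in opposite directions with WX-02-23 in the engineered lines. In the WT-FOXA1 line both DMSO libraries and neither WX-02-23 library listed it, a change of −2 libraries. In the C258A-FOXA1 line neither DMSO library and both WX-02-23 libraries did, a change of 2. With 2 libraries in each group the difference was not tested. It holds at a −log10 q of at least 5. Neither change remains in lists of equal length, where none of these 8 libraries listed region 19. A fold of at least 6 cannot test the change, since the fold of region 19 was 3.00 to 3.88 wherever it was listed. Region 19 ends 43 bp before region 20, which every library held, and with peaks closer than 200 bp merged all 8 held the joined region. Listed summits held 35.8 and 34.4 scaled reads in the WT-FOXA1 DMSO libraries and 36.8 and 35.8 in the C258A-FOXA1 WX-02-23 libraries, on a local background that was a median of 16.2 times the library background.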

How the results depend on the processing

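For 39 results on region counts, covered length and gained or lost regions, alternatives other than leaving out a library gave 299 values. Of these, 207 were labelled the same, 60 moved, 11 weaker, 1 stronger and 20 reversed. For tests of parental groups or between the lines, the same meant the same direction. Tests within backgrounds also had to keep their side of an unadjusted p of 0.05. Engineered differences without a test were the same within the spread of their libraries and otherwise moved, so none could be labelled reversed. Counts of calls were the same within a factor of 1.5 and otherwise moved. Genome shares of gained and lost regions were computed under the main rule only. Counts of calls under the alternatives thus have no share beside them and describe the window alone. A fold of at least 6 removed regions 18 to 21, 23 and 24 from every library, since their highest folds were 3.41 to 5.70. No call at these regions could remain under that cut. Leaving out 1 library gave 240 values, of which 214 were labelled the same. The cause was not tested unless stated.

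List length had the widest effect. In lists of equal length the regions with a peak differed by 2.0 (WT-FOXA1 WX-02-23), 0.5 (WT-FOXA1 PladB), −1.5 (Dox against no Dox), −0.5 (C258A-FOXA1 PladB), −0.67 (PladB doses), 0.5 (WX-02-23 within backgrounds) and 0.5 (between lines). Covered kilobases differed by −0.20 (WT-FOXA1 WX-02-23), −0.11 (Dox), −0.69 (C258A-FOXA1 PladB), −0.12 (WX-02-43), 0.11 (WX-02-23 within backgrounds) and −0.54 (PladB within backgrounds, exact permutation p = 0.05). Gained and lost regions together were 0 for parental WX-02-23 against DMSO and against WX-02-43 and for PladB in both lines, 1 for parental PladB 100 nM, and 2 for WX-02-23 in both lines.

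With −log10 q of at least 5, regions differed by −1.0 (WT-FOXA1 WX-02-23), 1.5 (Dox) and −0.94 (WX-02-23 within backgrounds), kilobases by −1.17 (WT-FOXA1 WX-02-23), −0.17 (WX-02-23), −0.062 (between stereoisomers) and −0.10 (WX-02-43), and calls were 3 (WT-FOXA1 WX-02-23) and 0 (WT-FOXA1 PladB). With a fold of at least 6, regions differed by −1.0 (C258A-FOXA1 PladB), −0.5 (Dox), −1.5 (WT-FOXA1 WX-02-23), −0.72 (WX-02-23 within backgrounds), 1.0 (PladB 10 nM) and −1.0 (doses), kilobases by −0.54, 0.27, −0.84 (the first 3 of these), −0.58 (PladB within backgrounds), 0.056 (PladB 10 nM) and −0.29 (WX-02-43), and calls were 0 for C258A-FOXA1 PladB, Dox, WT-FOXA1 PladB and between stereoisomers and 3 for WT-FOXA1 WX-02-23.

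With 50% of a region covered, regions differed by −3.39 (PladB within backgrounds), −2.5 (WT-FOXA1 WX-02-23), −1.17 (WX-02-23 within backgrounds), −1.0 (doses), 1.0 (WX-02-23) and 1.0 (WX-02-43), and calls were 0 (C258A-FOXA1 WX-02-23, Dox), 1 (WT-FOXA1 PladB, doses) and 2 (WT-FOXA1 WX-02-23, parental PladB 100 nM and WX-02-23). With summit windows of 100 bp each side, regions differed by 1.5 (Dox), −2.5 (WT-FOXA1 WX-02-23) and −1.44 (WX-02-23 within backgrounds), kilobases by −0.55 (PladB within backgrounds), 0.40 (Dox), −0.80 (WT-FOXA1 WX-02-23), 0.067 (PladB 100 nM), 0.47 (doses), −0.20 (WX-02-23) and −0.27 (between stereoisomers), and 1 region was called between doses.

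Inside the gene alone, WT-FOXA1 WX-02-23 gave −1.0 regions, −0.57 kb and 3 calls, C258A-FOXA1 PladB −1.11 kb, WX-02-43 −0.20 kb and WX-02-23 within backgrounds −0.5 regions. Merging peaks closer than 200 bp gave −2.0 regions for WT-FOXA1 WX-02-23, and calls of 0 (C258A-FOXA1 WX-02-23) and 1 (Dox). Regions of the same cell background gave −2.5 (WT-FOXA1 PladB), −4.0 (WT-FOXA1 WX-02-23) and −2.06 (WX-02-23 within backgrounds). Without the C258A-FOXA1 line the last was −2.33 (exact permutation p = 0.05). Where 1 library may lack or hold a peak, which loosens the rule, calls were 7 (C258A-FOXA1 PladB and WX-02-23), 5 (Dox), 8 (WT-FOXA1 PladB), 2 (between stereoisomers) and 1 (PladB 10 nM, doses, WX-02-43). Scaling by the library background, chosen after seeing the data, called region 4 lower with WX-02-23 (−0.81), among 2351 regions lower and 56 higher of 35901 in the genome, against none of either by the median ratio.

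With the replicate number as a block, WX-02-23 within backgrounds gave −1.89 regions (exact permutation p = 0.0938) and no other result changed side. Same-numbered libraries correlated by −0.0263 to 0.0278, so the numbers do not pair the libraries.

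Leaving out 1 library at a time, the regions with a peak differed by −1.0 to 0.17 for WX-02-43, by −2.39 to −1.39 for WX-02-23 within backgrounds and by −2.67 to −1.67 for PladB within backgrounds. Within backgrounds WX-02-23 passed an unadjusted p of 0.05 in 5 of these 14 refits, and PladB in 2. Covered kilobases differed by −0.0475 to 0.427 for WX-02-23, −0.277 to 0.491 for WX-02-43, −0.255 to 0.512 between stereoisomers and −0.849 to 0.150 between PladB doses. The count of calls ran over 0 to 1 for WX-02-43, PladB 10 nM and doses, 1 to 2 between stereoisomers, 3 to 5 for WT-FOXA1 PladB, 5 to 7 for WT-FOXA1 WX-02-23, 1 to 4 for C258A-FOXA1 WX-02-23 and 4 to 6 for C258A-FOXA1 PladB. Covered kilobases do not depend on merging, so they have no value for 50% cover, merging and regions of the same background. The smallest listed summit held 5 to 8 reads, and the weakest regions lay close to it. Whether depth limits them was not tested.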
